A study of Sus scrofa with 6 samples.

Results

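Fibroblast growth factor (FGF) receptors, their docking substrates and the Sprouty feedback inhibitors were followed in whole pig embryos of 2 VRTN genotypes. Members were all transcript rows whose deposited protein match named a fibroblast growth factor receptor or a sprouty homolog. The rule found 20 of 20523 rows, belonging to 10 genes: the receptors FGFR1 to FGFR4, the fibroblast growth factor receptor substrates FRS2 and FRS3, and SPRY1 to SPRY4. FGFR1 had 6 rows, FGFR2 had 4, FGFR3 and FGFR4 had 2 each, and the other 6 genes had 1. Each gene is described by its row with the most reads, and values of single libraries follow the order of replicates 1, 2 and 3 within a group.

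The study compared Large White embryos harvested at 17.5 to 18 days post coitum. VRTN encodes vertnin, and its variants are associated with how many ribs and thoracic vertebrae a pig has. Mutant embryos (QQ) were homozygous for the mutant alleles of 2 quantitative trait nucleotides of VRTN, and wild-type embryos (WT) carried the other alleles (qq). Each group had 3 libraries, each from the RNA of a whole embryo, and the genotype was read from that embryo's extra-embryonic tissue. The labels name neither litter nor dam, so p-values measure only the spread between these embryos, which may be in part technical. In whole-embryo RNA, fewer cells of a type and less RNA per cell cannot be told apart.

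FGF receptors are tyrosine kinases of the cell surface that bind FGF ligands together with heparan sulfate. FRS2 and FRS3 dock on the receptor and, once it is activated, recruit GRB2 and SOS. SOS loads RAS with GTP and so starts the kinase cascade that ends in ERK. Sprouty proteins are made in response to this cascade and dampen it, so that their transcripts are widely used as readouts of FGF signalling. In vertebrate embryos FGF signalling is strong in the tail bud and presomitic mesoderm, where it falls towards the front as somites form, and it also acts in the limb buds.

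Between 12.2 and 13.5 megareads mapped uniquely per library, and 13957 rows passed the filter on low counts. The library of WT replicate 3 lay apart from the rest, at -61.7 on the principal component with the most variance (57.7%), where the other 5 libraries lay between -9.13 and 30.0. It gave the lowest value of the 6 libraries in 41.4% of all tested rows. VRTN itself had at most 2 reads in any library, too few to check the labels.

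Coverage of the transcripts set how far each member could be measured. SPRY2 was covered over 98.8 to 99.7% of its length in every library, SPRY4 over 94.0 to 99.3% and SPRY1 over 88.1 to 95.6%. The best FGFR2 row was covered over 89.5 to 92.7%, but it is only 477 bp long and holds a fragment of the gene. FGFR3 reads covered 29.9 to 35.9% of a 967 bp row. The 4288 bp row of FGFR1 was covered over 3.61 to 5.83% and the 3084 bp row of FGFR4 over 2.20 to 6.13%, with 45 reads each over all 6 libraries. Over tested rows the median coverage was 80.2 to 83.6% by library. Levels in RPKM (reads per kilobase of transcript and megaread of library) of FGFR1 and FGFR4 therefore rest on reads from a small share of each row, and they cannot be ranked against the Sprouty genes.

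**Figure D1:**
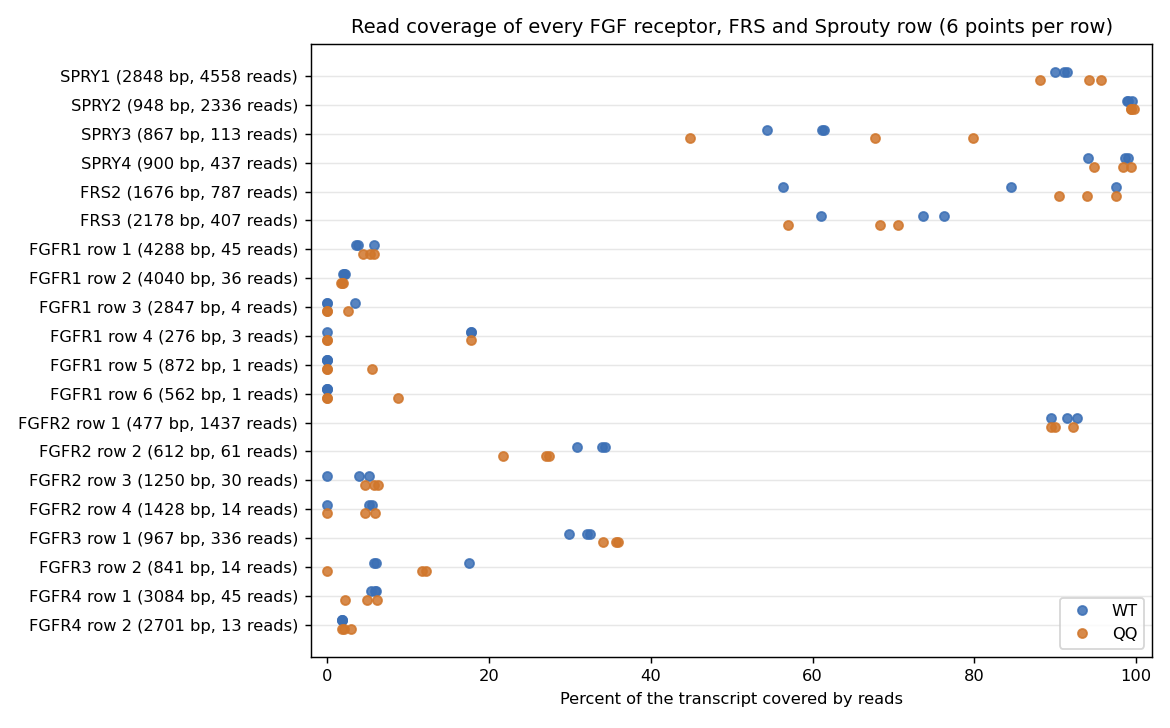
Percent of each transcript row covered by reads (x axis) for all 20 rows, named with their length and their reads over the 6 libraries; each point is 1 library, WT in blue and QQ in orange. SPRY2, SPRY4, SPRY1 and the 477 bp FGFR2 row were covered over 88.1% or more in every library, and the 4288 bp FGFR1 row and the 3084 bp FGFR4 row over 6.13% or less.

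Of the 10 genes 8 had a row past the filter on low counts, and none of these 8 passed edgeR's quasi-likelihood test of QQ against WT, with Benjamini-Hochberg adjustment over all tested rows. That test called 0% of all tested rows. At an unadjusted p under 0.05 SPRY2 and FRS2 had higher values in QQ embryos, 2 of 8 genes, where 20.3% of all tested rows passed that mark, 11% on the higher and 9.29% on the lower side. SPRY2 and FRS2 were also the members whose 3 QQ libraries all lay above the 3 WT libraries, which held for 18.8% of all tested rows. In either direction the groups did not overlap in 27.9% of all rows, with 9.07% lower in QQ. With only 8 genes, a share of 2 in 8 cannot be told apart from these backgrounds. Without WT replicate 3 only FRS2 had an unadjusted p under 0.05 (1 of 8, against 13.7% of all rows), and without QQ replicate 1 FRS2 was again the 1 of 8 (against 20.6%). The median log2 fold change of the 8 genes, QQ against WT, was 0.24, with 7 values above 0 and 1 below, where 49.7% of all tested rows were above 0. Leaving out WT replicate 3 gave 0.17 and leaving out QQ replicate 1 gave 0.19, and the median of all tested rows was -0.0027. WT replicate 3 gave the lowest value in 5 of these 8 genes (62.5%), and the part of that library in the median was not tested beyond its removal.

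SPRY2, the Sprouty gene with the highest level per length in these embryos, was the only Sprouty gene whose groups did not overlap. In reads over all libraries it lay below SPRY1 with its longer row (2336 against 4558). The SPRY2 row (ENSSSCT00000010397, 948 bp) had 341, 337 and 318 reads in WT and 533, 390 and 417 reads in QQ. Per length these were 28.8, 27.7 and 24.9 RPKM in WT embryos and 41.7, 32.7 and 36.0 RPKM in QQ embryos. All QQ libraries lay above all WT libraries, QQ replicate 1 was the highest and WT replicate 3 the lowest. The means were 27.1 ± 1.98 and 36.8 ± 4.55 RPKM (SD, n = 3 each).

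The log2 fold change of SPRY2 was 0.35 ± 0.15 (SE), with an unadjusted p of 0.0433 and an adjusted p of 0.238 in edgeR. On the scale of log2(RPKM + 0.5) the groups differed by 0.43, with an exact permutation p of 0.1 (two-sided), below which 3 against 3 libraries cannot go. QQ replicate 1 carried a part of the difference: without it the edgeR log2 fold change was 0.21, with an unadjusted p of 0.206 and an adjusted p of 0.431. Over all alternatives the log2 fold change stayed between 0.21 and 0.45 and the adjusted p between 0.216 and 0.669, so SPRY2 was above 0 in each of them and called in none.

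SPRY1, a close relative that also restrains RAS to ERK signalling, showed no such separation. Its 2848 bp row stood at 20.9, 21.7 and 17.8 RPKM in WT and at 22.7, 21.0 and 20.6 RPKM in QQ. The 2 groups overlapped, with WT replicate 3 lowest. Means were 20.1 ± 2.07 and 21.4 ± 1.10 RPKM (SD, n = 3 each), and the edgeR log2 fold change was 0.00039 ± 0.12 (SE), with a sign that turned after quantile normalization, with no filter and without WT replicate 3 or QQ replicate 1.

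SPRY4 and SPRY3 were present at lower levels. SPRY4, also an ERK pathway inhibitor, had 85, 60 and 65 reads in WT and 85, 67 and 75 reads in QQ, so the groups overlapped almost fully. Its means were 6.04 ± 1.32 and 6.58 ± 0.583 RPKM (SD, n = 3 each) and its log2 fold change was 0.03 ± 0.22 (SE), below 0 after quantile normalization. SPRY3, the least abundant of the family here, had 18, 14 and 12 reads in WT and 22, 11 and 36 reads in QQ. Only QQ replicate 3 stood out. SPRY3 had a log2 fold change of 0.58 ± 0.44 (SE; edgeR adjusted p = 0.440), which was 0.07 without QQ replicate 3.

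By level per length the Sprouty genes kept 1 order in every library: SPRY2 above SPRY1, SPRY1 above SPRY4 and SPRY4 above SPRY3. In each of the 6 libraries the neighbours in this order were apart without overlap of their ranges. The distance from SPRY2 to SPRY1 was wider in QQ embryos. Their log2 ratio of RPKM was 0.46, 0.35 and 0.49 in WT and 0.88, 0.64 and 0.81 in QQ, without overlap. That is a difference of 0.34 (exact two-sided permutation p = 0.1, again the smallest possible, and 0.15 adjusted over 3 ratios).

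The ratio of SPRY2 was also taken against 2 other inhibitors. Against DUSP6, a phosphatase that inactivates ERK and is itself made in response to ERK, it was -0.81, -0.90 and -0.97 in WT and -0.48, -0.57 and -0.47 in QQ. The groups were again separate, with a difference of 0.39 (exact permutation p = 0.1, adjusted 0.15). Against SPRY4 the groups overlapped, and the difference was 0.29 (exact permutation p = 0.2, adjusted 0.2). Without QQ replicate 1 the differences were 0.29 against SPRY1, 0.25 against SPRY4 and 0.37 against DUSP6. These ratios compare libraries independently of their depth, but they were added after the values of SPRY2 had been seen and all 3 share it.

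**Figure D2:**
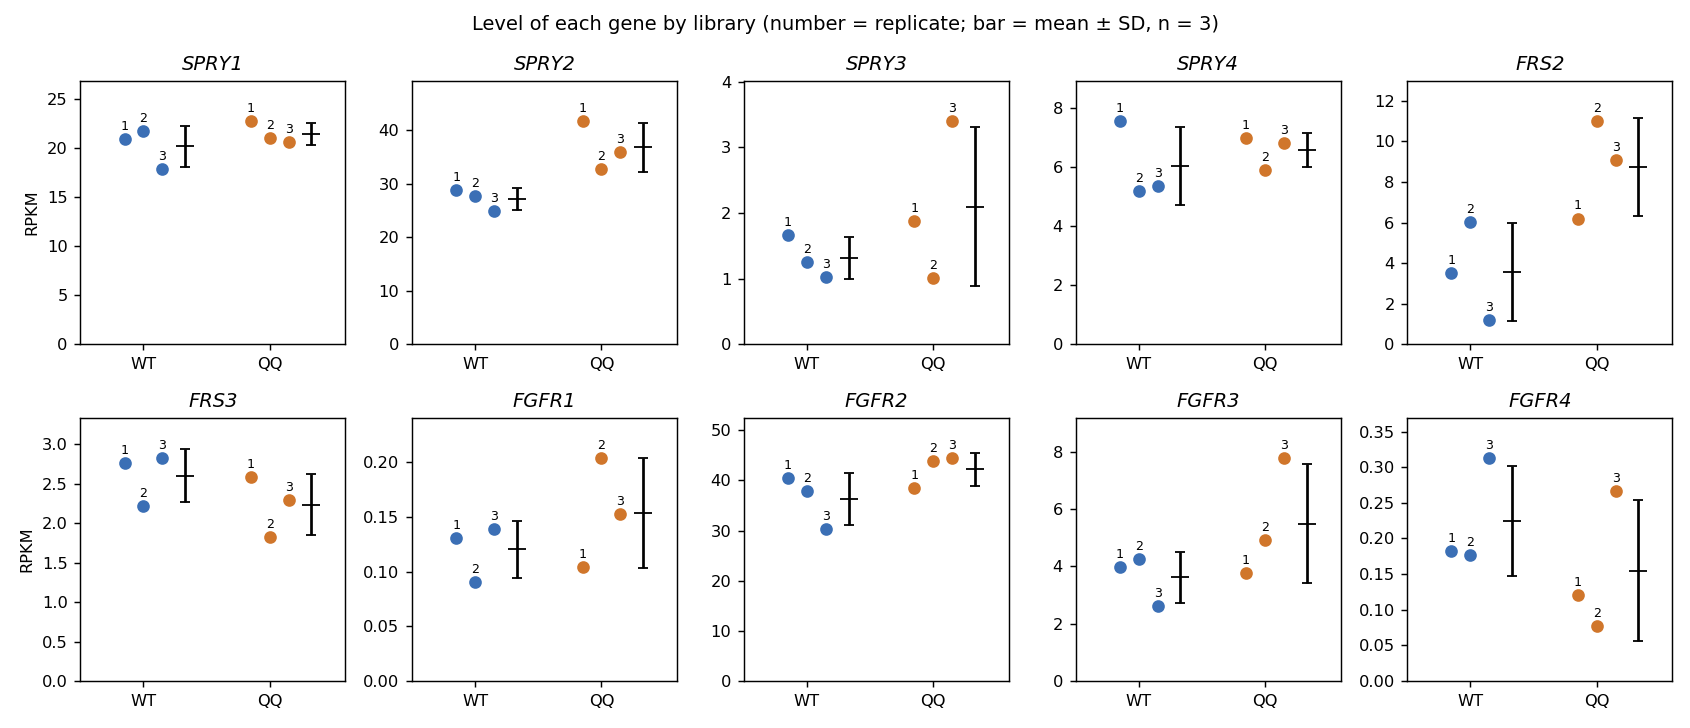
Level in RPKM (y axis, from 0, 1 scale per gene) of the 10 genes in each library; points are libraries with their replicate number, WT in blue and QQ in orange, and bars are the mean ± SD of 3 libraries. The 3 QQ libraries lie above the 3 WT libraries in SPRY2 and FRS2 and overlap with them in the other 8 genes.

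FRS2, the docking protein that links activated FGF receptors to GRB2 and SOS, had the largest log2 fold change of the tested members. It had 73, 130 and 27 reads in WT and 140, 231 and 186 reads in QQ. In RPKM these were 3.49, 6.04 and 1.20 against 6.20, 11.0 and 9.09. The groups were separate, but by a narrow gap: WT replicate 2 at 6.04 RPKM lay just under QQ replicate 1 at 6.20 RPKM, and WT replicate 3 lay far below the others. The means were 3.58 ± 2.42 and 8.75 ± 2.40 RPKM (SD, n = 3 each).

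The log2 fold change of FRS2 was 1.20 ± 0.44 (SE), with an unadjusted p of 0.0219 and an edgeR adjusted p of 0.233. Many rows shared this smallest adjusted p, among them BRAF (unadjusted p = 0.00599) and HAND2 (unadjusted p = 0.0311), so it does not rank FRS2 first. The log2 fold change of FRS2 was 0.79 without WT replicate 3 (adjusted p = 0.297) and 1.80 without WT replicate 2 (adjusted p = 0.140) in edgeR. DESeq2 gave FRS2 an adjusted p of 0.101 with all 6 libraries, when it called 0.9% of all rows and no member. It called FRS2 once WT replicate 2 was left out (log2 fold change 1.81, adjusted p = 0.00273), when it called 7.22% of all rows, 5.91% as higher. Over all alternatives the adjusted p of FRS2 ran from 0.00273 to 0.669. Reads also covered less of its transcript in WT replicate 3 (56.3%) than in the other 5 libraries (84.5 to 97.5%).

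FRS3, the second docking protein of this kind, was the member with the value below 0. It had 75, 62 and 83 reads in WT and 76, 50 and 61 reads in QQ, with overlapping groups. Means were 2.60 ± 0.336 and 2.24 ± 0.385 RPKM (SD, n = 3 each) and the log2 fold change was -0.31 ± 0.23 (SE; edgeR adjusted p = 0.431).

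Among the receptors, FGFR2 gave by far the most reads. FGFR2 is a receptor of epithelia and mesenchyme whose isoforms differ in the ligands they bind. Its 477 bp row had 241, 232 and 195 reads in WT and 247, 263 and 259 reads in QQ. The groups overlapped in RPKM, with WT replicate 3 lowest at 30.4 RPKM and QQ replicate 3 highest at 44.5 RPKM. Means were 36.2 ± 5.22 and 42.2 ± 3.34 RPKM (SD, n = 3 each), and the log2 fold change of 0.13 ± 0.15 (SE; edgeR adjusted p = 0.628) was 0.03 without WT replicate 3.

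The other 3 FGFR2 rows held 61, 30 and 14 reads and did not pass the filter. They did not all lie on 1 side. The 612 bp row had 15, 9 and 15 reads in WT and 7, 6 and 9 reads in QQ, and with no filter on low counts its log2 fold change was -0.89 (edgeR adjusted p = 0.314). The 1250 bp row had 0, 3 and 1 reads in WT and 5, 13 and 8 reads in QQ, and its log2 fold change was 2.52 (edgeR adjusted p = 0.229, no filter). These are small numbers of reads from rows of 1 gene, among which the counting program can divide reads, so neither value is firm. With the 4 rows summed, FGFR2 had 261, 244 and 213 reads in WT and 263, 282 and 279 reads in QQ, for a log2 fold change of 0.12 ± 0.15 (SE).

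FGFR3, a receptor best known for its part in cartilage growth, had 48, 53 and 34 reads in WT and 49, 60 and 92 reads in QQ. QQ replicate 3 was the highest library and WT replicate 3 the lowest, and the groups overlapped. The means were 3.62 ± 0.882 and 5.50 ± 2.08 RPKM (SD, n = 3 each), and the log2 fold change was 0.50 ± 0.30 (SE; edgeR adjusted p = 0.337). It was 0.18 without QQ replicate 3 and 0.33 without WT replicate 3.

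FGFR1, the receptor through which FGF signals reach the presomitic mesoderm, could hardly be measured. Its 6 rows together held 15, 9 and 18 reads in WT and 13, 18 and 17 reads in QQ. The groups overlapped, and the log2 fold change of the summed rows was 0.12 ± 0.35 (SE; edgeR adjusted p = 0.858). FGFR4, the receptor of FGF19 in liver, had 8, 8 and 14 reads in WT and 6, 5 and 17 reads in QQ over its 2 rows. With no filter, the log2 fold change of its larger row was -0.65 (edgeR adjusted p = 0.568). Why reads cover so little of these rows was not tested, so the values describe the covered stretches only.

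The genes around the receptors were taken from 6 lists: ligands, co-receptors and adaptors, the RAS to ERK cascade, other feedback inhibitors, transcription factors that respond to ERK, and heparan sulfate genes. In no list did edgeR call a gene, in either direction.

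Of 22 FGF ligand genes 20 had a row and 12 were tested. None had an unadjusted p under 0.05, 9 had values above 0 and 3 below, and the median log2 fold change was 0.16. Without QQ replicate 1, edgeR put 2 higher and 0 lower at that mark, FGF19 and FGF2. Their log2 fold changes were then 0.76 (adjusted p = 0.210) and 0.85 (adjusted p = 0.237). Of all 13957 rows, 1414 were then higher and 1460 lower at that mark. FGF17, the ligand with the highest level, made at the midbrain-hindbrain boundary and in the tail bud, stood at 20.1, 22.3 and 29.3 RPKM in WT and 18.0, 29.5 and 26.4 RPKM in QQ, with overlapping groups. FGF19, a ligand of FGFR4, stood at 9.30, 9.63 and 9.65 RPKM in WT and 9.84, 13.5 and 21.7 RPKM in QQ. Its groups were separate, by a small margin at QQ replicate 1, and its log2 fold change was 0.55 ± 0.27 (SE; edgeR adjusted p = 0.266), or 0.20 without QQ replicate 3, its highest library. FGF13, an intracellular member of the family, had a log2 fold change of 0.18 ± 0.13 (SE), and FGF2 one of 0.64 ± 0.35 (SE) on 140 reads, or 0.35 without QQ replicate 2. FGF8, a ligand of the tail bud and limb ridge, had 3 to 13 reads per library and was not tested.

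Of 13 co-receptors and adaptors, a list that also holds FRS2 and FRS3, 11 were tested. At an unadjusted p under 0.05, 4 had higher values in QQ embryos and none lower, where 11% of all tested rows were higher and 9.29% lower at that mark. The list has only 11 tested genes and was not tested as a set. The number was 4 without WT replicate 3 as well, with smaller log2 fold changes for all 4. Of all 13957 rows, 1198 were then higher and 725 lower at that mark, against 1540 and 1297 with all libraries. The 4 genes were FRS2, SOS1, SOS2 and CBL. SOS2 and SOS1 are the exchange factors that load RAS. SOS2 stood at 9.81, 10.3 and 4.94 RPKM in WT and 11.3, 16.0 and 17.3 RPKM in QQ, for a log2 fold change of 0.74 ± 0.25 (SE), which was 0.48 without WT replicate 3. DESeq2 called it without WT replicate 2 (adjusted p = 0.0311, and 0.0311 to 0.669 over all alternatives). SOS1 had 0.72 ± 0.27 (SE), and 0.43 without WT replicate 3.

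CBL, a ubiquitin ligase that marks activated receptors for degradation, stood at 6.93, 9.35 and 1.77 RPKM in WT and 11.5, 15.1 and 18.1 RPKM in QQ. Its log2 fold change was 1.22 ± 0.44 (SE), and 0.79 without WT replicate 3, its lowest library, when DESeq2 called it (adjusted p = 0.0116, and 0.0116 to 0.689 over all alternatives). The same library was lowest for FRS2, SOS1 and SOS2. The most abundant adaptors did not share these values. GRB2 had a log2 fold change of -0.14 ± 0.10 (SE) and CRKL one of 0.07 ± 0.11 (SE), of a sign that turned without WT replicate 3. PTPN11, the phosphatase SHP2 that binds FRS2, had separate groups and a log2 fold change of 0.27 ± 0.16 (SE), which was 0.08 without WT replicate 3. The median of the list was 0.065.

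In the RAS to ERK cascade 11 of 14 genes were tested. At an unadjusted p under 0.05, 3 were higher and 0 lower in QQ embryos (all tested rows: 11% higher and 9.29% lower). This list too has only 11 tested genes and was not tested as a set. The numbers were the same without WT replicate 3, when 1198 of all 13957 rows were higher and 725 lower. All 3 log2 fold changes were then smaller. The 3 genes were BRAF, RPS6KA3 and RASA1. BRAF, a kinase that RAS activates, had 258, 294 and 148 reads in WT and 386, 467 and 457 reads in QQ, without overlap in RPKM and with WT replicate 3 lowest. Its log2 fold change was 0.83 ± 0.23 (SE; edgeR adjusted p = 0.233), and 0.58 without WT replicate 3. DESeq2 called BRAF without WT replicate 2 (adjusted p = 0.00902) or without WT replicate 3 (adjusted p = 0.0410), and over all alternatives its adjusted p ran from 0.00902 to 0.669.

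RPS6KA3, a kinase that ERK activates, had means of 0.265 ± 0.0923 and 0.596 ± 0.0950 RPKM in the WT and the QQ libraries (SD, n = 3 each). Its 71 reads over all 6 libraries covered 3.57 to 4.83% of its row, so these values describe the covered stretches only. Its groups were separate, and its log2 fold change was 1.07 ± 0.35 (SE), or 0.93 without WT replicate 3 and 0.52 in limma on log2(RPKM + 0.5). RASA1, which switches RAS off and is named here to complete the count, had a log2 fold change of 0.49 ± 0.17 (SE), and 0.32 without that library. The most abundant genes of the list were NRAS, MAP2K1 and HRAS. NRAS had a log2 fold change of 0.17 ± 0.12 (SE), or 0.10 without WT replicate 3, and the kinase gene MAP2K1 one of 0.10 ± 0.18 (SE), below 0 without WT replicate 3. HRAS, which like NRAS encodes a RAS protein, stood at 20.8, 20.8 and 28.2 RPKM in WT and 19.2, 19.5 and 20.4 RPKM in QQ. The groups were separate by a small margin, with WT replicate 3 highest, and the log2 fold change was -0.34 ± 0.19 (SE; edgeR adjusted p = 0.322), or -0.15 without that library. The median of the list was 0.17, with 9 values above 0 and 2 below.

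Of 13 other feedback inhibitors 11 were tested, and 2 had higher values in QQ embryos at an unadjusted p under 0.05, SPRED1 and FLRT2. With only 11 genes, this share cannot be told apart from the 11% of all tested rows. SPRED1, a relative of Sprouty that restrains RAS to ERK signalling, stood at 15.3, 19.4 and 8.43 RPKM in WT and 19.5, 30.1 and 29.3 RPKM in QQ. The groups were separate, by a gap of less than 1 RPKM between WT replicate 2 and QQ replicate 1, and the log2 fold change was 0.78 ± 0.27 (SE), or 0.52 without WT replicate 3. DESeq2 called it without WT replicate 2 (adjusted p = 0.0109, and 0.0109 to 0.669 over all alternatives). FLRT2, a membrane protein that binds FGF receptors, had means of 34.3 ± 7.70 and 46.9 ± 5.61 RPKM (SD, n = 3 each) and a log2 fold change of 0.36 ± 0.16 (SE), which was 0.20 without WT replicate 3, where its unadjusted p was 0.0803. DUSP6 had overlapping groups: it stood at 50.6, 51.5 and 48.7 RPKM in WT and 58.0, 48.4 and 49.8 RPKM in QQ. Its log2 fold change was -0.04 ± 0.13 (SE), of a sign that turned in limma. PEBP1, an inhibitor of the same kinase cascade, was the most abundant of the list, with 248 ± 16.6 and 233 ± 13.6 RPKM (SD, n = 3 each), overlapping groups and a log2 fold change of -0.19 ± 0.12 (SE), above 0 after quantile normalization. The median of the list was -0.0034.

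**Figure D3:**
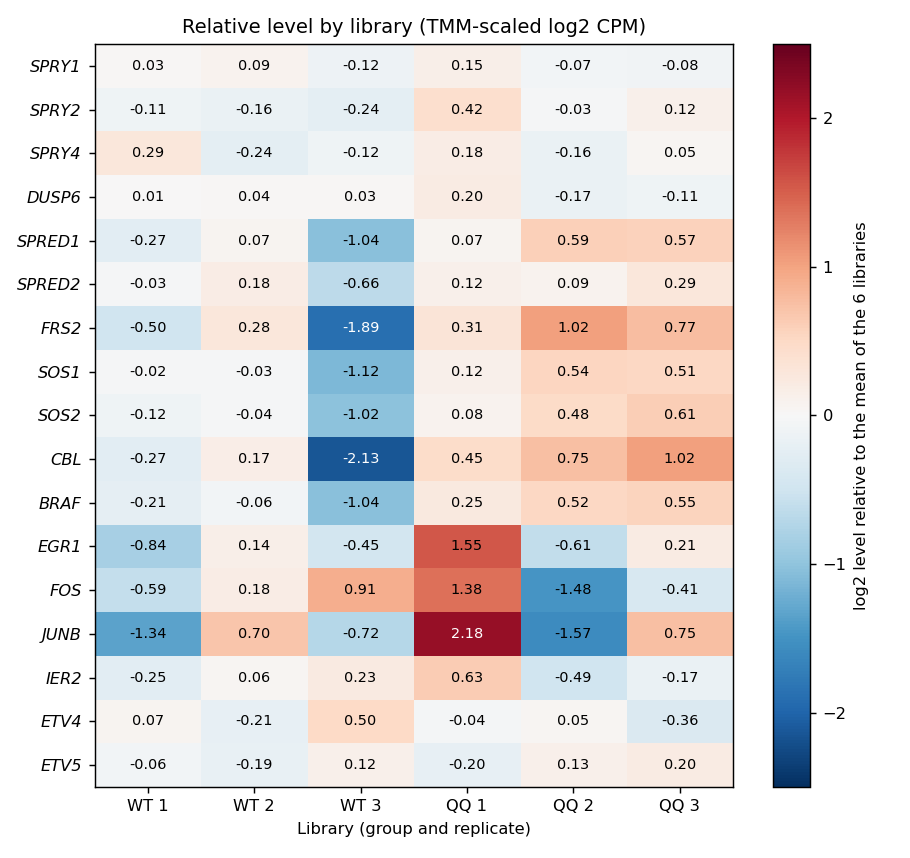
Level of 17 genes in each library as the difference from the gene's mean over the 6 libraries, on the log2 scale of TMM-scaled CPM (counts per megaread), in colour and in numbers; columns are the WT and QQ libraries and rows the genes. SPRY2 was 0.42 above its mean in QQ replicate 1, where EGR1, FOS and JUNB were 1.38 to 2.18 above theirs, and FRS2, SOS1, SOS2, CBL, BRAF and SPRED1 were at least 1.02 below theirs in WT replicate 3.

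Of 13 listed transcription factors that respond to ERK, 12 had a row and were tested. No gene had an unadjusted p under 0.05, and no groups were separate. Of these 12 genes 7 had their highest value in QQ replicate 1 (58.3%), against 7.51% of all tested rows, and the same library was the highest for SPRY2. FOS, an immediate early gene, stood at 81.8, 140 and 219 RPKM in WT and 323, 47.6 and 98.9 RPKM in QQ, and its log2 fold change of 0.02 ± 0.62 (SE) was -1.14 without QQ replicate 1. JUNB stood at 6.47, 26.8 and 9.45 RPKM in WT and 75.3, 5.96 and 29.7 RPKM in QQ. Its log2 fold change was 1.32 ± 0.77 (SE), and 0.21 without QQ replicate 1. EGR1 had 1.00 ± 0.49 (SE), and 0.18 without that library. IER2 and MYC had 0.05 ± 0.27 and 0.24 ± 0.15 (SE), and without QQ replicate 1 IER2 was below 0 and MYC at 0.12. ETV4 and ETV5, factors of the ETS family that are standard FGF targets, also had overlapping groups, with log2 fold changes of -0.26 ± 0.20 and 0.09 ± 0.14 (SE). Without WT replicate 3 these were -0.05 and 0.18, and without QQ replicate 1 ETV5 was at 0.20. The part of QQ replicate 1 in the SPRY2 values was not tested beyond its removal, which took the SPRY2 log2 fold change from 0.35 to 0.21.

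Of 24 heparan sulfate genes, core proteins and the enzymes that build and trim the chains on which FGFs bind their receptors, 20 were tested. There were 10 values above 0 and 10 below, with a median of -0.016, and 3 genes had higher values in QQ embryos at an unadjusted p under 0.05 (HSPG2, NDST3 and GPC6), where 3 of 20 lies near the 11% of all tested rows. Without WT replicate 3 there were 2, since GPC6 then had a p of 0.0822 and a log2 fold change of 0.28 in place of 0.48. HSPG2, which encodes perlecan, stood at 41.3, 26.8 and 24.1 RPKM in WT and 43.5, 48.4 and 64.0 RPKM in QQ, a log2 fold change of 0.66 ± 0.20 (SE; edgeR adjusted p = 0.233) with separate groups. DESeq2 called it without WT replicate 1 (adjusted p = 0.00576, with a range of 0.00576 to 0.669 over all alternatives). NDST3, a sulfotransferase of the chains, had separate groups at a low level, 0.348 ± 0.120 and 0.736 ± 0.206 RPKM (SD, n = 3 each), and a log2 fold change of 0.98 ± 0.32 (SE), or 0.54 in limma on log2(RPKM + 0.5). The abundant core proteins GPC3, SDC2 and GPC1 had log2 fold changes of 0.0028 ± 0.18, 0.11 ± 0.11 and -0.06 ± 0.12 (SE). The sign of GPC3 turned with no filter and when single libraries were left out, and that of GPC1 after quantile normalization and without WT replicate 3.

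**Figure D4:**
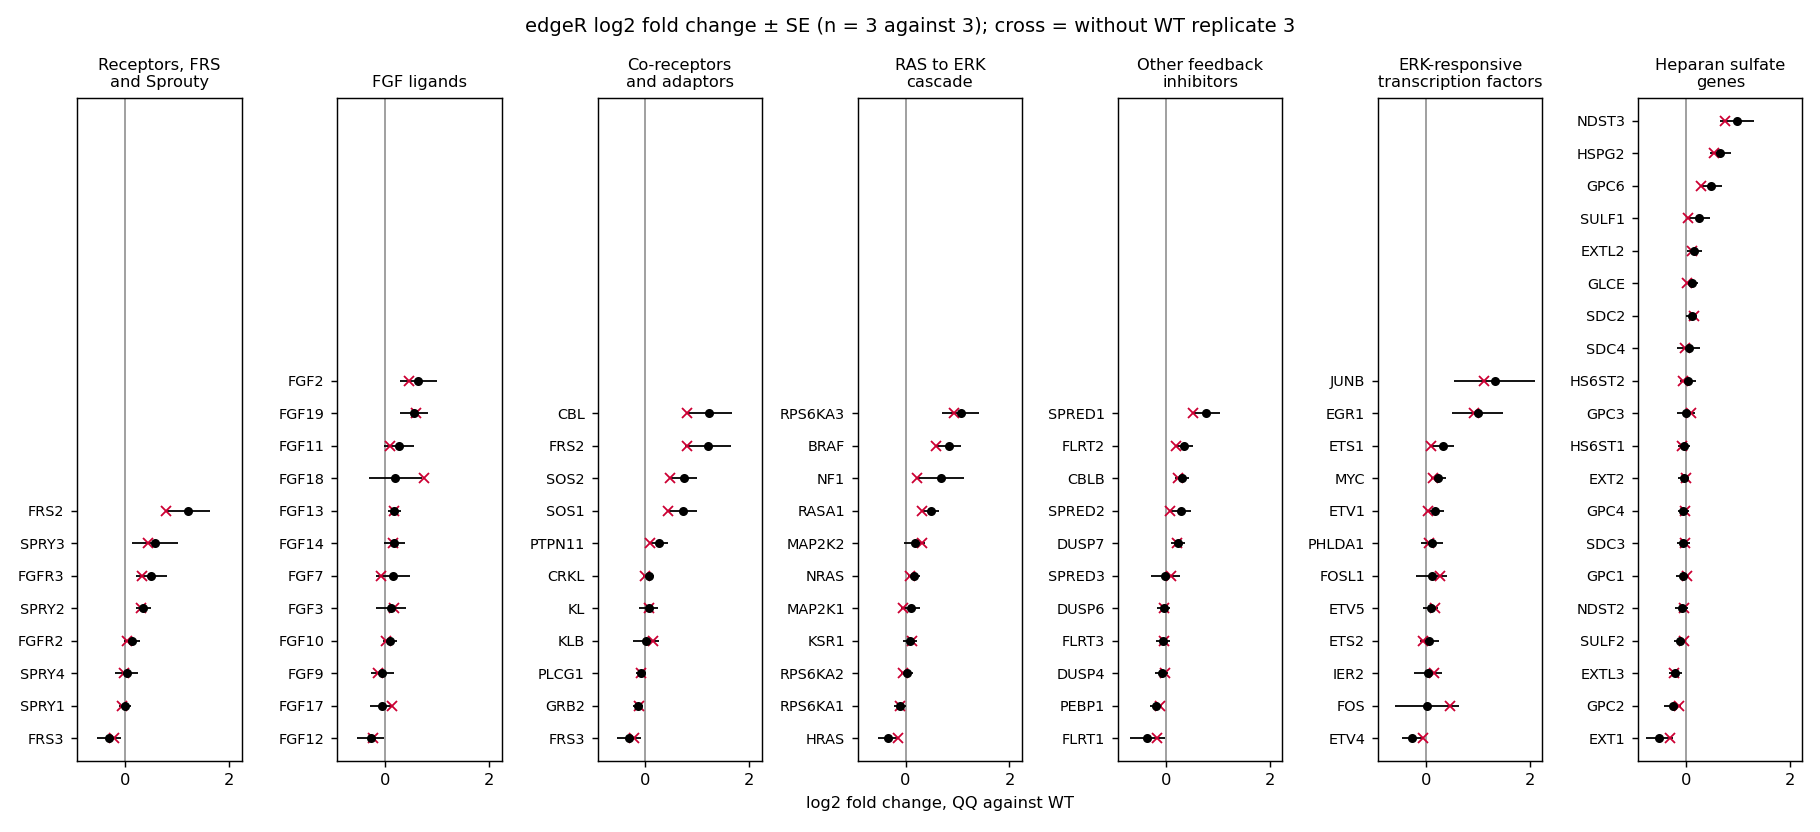
edgeR log2 fold change, QQ against WT (x axis), of every tested gene of each group of genes; points with bars are the value ± SE from 3 against 3 libraries and red crosses the value without WT replicate 3. FRS2, CBL, SOS1, SOS2, BRAF and SPRED1 lie at 0.72 or more with all 6 libraries and at 0.43 to 0.79 without WT replicate 3, and SPRY2 lies at 0.35 and 0.31.

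Among 6324 rows with a symbol and a mean of at least 1 RPKM, the genes whose log2 CPM (TMM-scaled) followed SPRY2 most closely over the 6 libraries were RABGEF1, MXD4, S1PR1, MFSD1 and CSRNP1, with Pearson's r of 0.946 to 0.964. S1PR1, a receptor for sphingosine 1-phosphate, stood at 6.97, 6.98 and 5.37 RPKM in WT and 11.7, 9.27 and 9.34 RPKM in QQ, without overlap. CSRNP1, a nuclear protein, had 223, 264 and 230 reads in WT and 879, 241 and 469 reads in QQ, so that QQ replicate 1 was again the highest. The rows that ran most against SPRY2 were SKA1, HSD11B1L, POMGNT2, NOC3L and ARL10, with r of -0.993 to -0.965, and each of them was lowest in QQ replicate 1. All these values come from the same 6 libraries, were picked as the extremes of many rows and describe likeness only.

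Markers of the tissues that carry FGF signalling were compared as summed RPKM. The tail bud and presomitic markers, of which 9 of 12 had a row and MESP2 at most 1 read per library, came to 38.8, 39.9 and 56.0 RPKM in WT and 40.2, 63.5 and 63.3 RPKM in QQ. No row was found under the symbols T, TBX6 and RIPPLY2, and T was not looked up under its other symbol, TBXT. These sums overlapped, and QQ replicate 1, the library with the highest SPRY2, lay beside WT replicates 1 and 2. CDX2 alone gave 20.9 to 33.8 RPKM of each sum. Gene by gene, 6 of the 8 tested had values above 0 and 2 below, where 49.7% of all tested rows were above 0. Their median log2 fold change was 0.19 (0.31 without WT replicate 3). WNT3A alone had separate groups, at 4.55, 3.98 and 4.86 RPKM in WT and 6.11, 6.25 and 4.89 RPKM in QQ. Groups separate and higher in QQ held for 18.8% of all tested rows. Limb bud markers (6 of 9 with a row) ranged from 206 to 211 RPKM in WT and from 197 to 247 RPKM in QQ embryos. Of 5 tested limb bud markers HAND2 alone had separate groups, at 116, 114 and 112 RPKM in WT and 104, 98.9 and 104 RPKM in QQ. Its log2 fold change was -0.25 ± 0.099 (SE; edgeR adjusted p = 0.2335), and the other 4 were above 0. Groups separate and lower in QQ held for 9.07% of all tested rows. Somite markers (8 of 11) ranged from 63.6 to 71.3 and from 64.6 to 82.4 RPKM. Neural tube markers (6 of 8) ranged from 63.9 to 78.0 and from 62.7 to 86.2 RPKM, and heart markers (8 of 9) from 1090 to 1490 and from 992 to 1190 RPKM. Endothelial markers (7 of 8) lay between 26.3 and 37.4 RPKM in all libraries.

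Markers of blood and of tissues at the embryo's border were also summed. Erythroid markers (10 of 10 with a row) came to 7660, 2140 and 2960 RPKM in WT and 2920, 286 and 3190 RPKM in QQ embryos. WT replicate 1 was thus the highest library and QQ replicate 2 the lowest. Markers of endoderm and yolk sac (11 of 11) ran from 59.8 to 316 and from 60.2 to 621 RPKM, and trophoblast markers (9 of 11) from 135 to 153 and from 137 to 213 RPKM. All of these sums overlapped between the genotypes, but they are set by the genes with the highest levels. Gene by gene, all 8 tested erythroid markers had values below 0 in QQ against WT, where 49.7% of all tested rows were above 0. Their median log2 fold change was -0.75 (-1.003 without WT replicate 3 and -0.91 without QQ replicate 1). The median was not taken without WT replicate 1 or QQ replicate 2. These genes mark 1 cell type, so they are not 8 separate results. Of 8 tested heart markers 7 had values below 0 and 1 above, with a median of -0.26 (-0.10 without WT replicate 3). Among tested markers of all lists, groups were separate and lower in QQ for HAND2, HBB and MYL2, a ventricular myosin light chain. That held for 9.07% of all tested rows. Groups were separate and higher for WNT3A, FOXC2, KDR and APOB, which held for 18.8% of all tested rows. APOB had 285 reads in QQ replicate 3 and 4 to 23 reads in each other library. The part of these tissues in the values of the receptors, FRS2 and SPRY2 was not tested.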

How the data were processed

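RNA of 3 WT and 3 QQ embryos was made into TruSeq libraries, per the labels' protocols. The genome was Sscrofa10.2 per the submitters' processing notes, and no source used here gives the aligner, the counting program or the strand setting. Per the file headers, the deposited table gives for each transcript and library a count of uniquely mapped reads, the RPKM and the percent of the length covered by reads. A dash was read as 0. Recomputed from counts, lengths and library totals, RPKM differed from the authors' values by a relative gap of at most 1.29e-07. Of 20523 rows, 9555 received a symbol from the deposited protein accession (7170), KEGG match (2278) or description (107), through gene tables of Sscrofa11.1. Accession and KEGG match gave 1 symbol in 97.1% of 3918 rows that had both.

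Counts were tested with edgeR 4.0.16 in R 4.3.3 (TMM factors 0.933 to 1.06, minimum count 10, minimum total 15, quasi-likelihood fit, Benjamini-Hochberg adjustment over 13957 rows, threshold 0.05), without covariates. Alternatives used DESeq2 1.42.0, limma 3.58.1 on log2(RPKM + 0.5), other scalings, filters, pseudocounts, a replicate block and leaving out each library. Summing the rows of a gene, DESeq2 without each library and the SPRY2 ratios were added after seeing the data. The scripts were tested on simulated data. Over pairs of libraries the chi-square of the counts was at least 8.06 times its degrees of freedom, so none was taken for a duplicate. matplotlib 3.10.9 drew the figures.

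The members and the gene lists were chosen with earlier results of these data known. Named genes were all members, the 3 genes of each list with the highest mean RPKM and its 2 with the smallest unadjusted p, and the 5 rows most like and most unlike SPRY2. SOS1, RASA1, GPC6, HAND2, MYL2, HBB, WNT3A, CDX2, FOXC2, KDR, APOB, FGF8, ETV4 and ETV5 were named outside this rule, after their values were seen. Some genes of the lists are not reported here and were left out of their counts.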

Additional observations from a re-analysis of the deposited data

How the results depend on the processing

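Of 36 genes followed, 25 kept their sign in every alternative run and 30 were called in none. Of 833 alternative values 63 turned sign and 7 were called, all by DESeq2 with 1 library left out. DESeq2 on all libraries called 103 rows higher and 8 lower where edgeR called 0, and with 1 library left out the counts over both tools ran from 0 to 694 higher and from 0 to 154 lower. Among the 8 tested members they ran from 0 to 1 higher (FRS2), and among the genes of the 6 lists from 0 to 5 higher. Both maxima came from DESeq2 without WT replicate 2, when it called 5.91% of all rows as higher. With all 6 libraries the lists held 12, 11, 11, 11, 12 and 20 tested genes. Why the tools differ was not tested.

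Values near 0 turned sign. With no filter they were -0.0041 for SPRY1 and -0.0012 for GPC3. In limma with pseudocounts of 0.5, 0.1 and 1 they were 0.04604, 0.04637 and 0.04563 for DUSP6, 0.03069, 0.03095 and 0.03037 for FGF17, 0.03316, 0.03339 and 0.03288 for GPC1 and -0.2365, -0.2385 and -0.2341 for FOS. After quantile normalization they were -0.048 for SPRY1, -0.095 for SPRY4, 0.022 for DUSP6, -0.22 for FOS, 0.041 for GPC1 and 0.012 for PEBP1. The cause was not tested.

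With 1 library left out the log2 fold changes ran from -0.079 to 0.047 for SPRY1, -0.074 to 0.22 for SPRY4, -0.0041 to 0.12 for CRKL, -0.16 to 0.035 for DUSP6, -0.20 to 0.14 for FGF17, -1.14 to 0.46 for FOS, -0.14 to 0.023 for GPC1, -0.15 to 0.17 for GPC3, -0.35 to 0.27 for IER2 and -0.054 to 0.19 for MAP2K1.

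With the replicate block, no member was called, and log2 fold changes were 0.34 for SPRY2, -0.00074 for SPRY1, -0.44 for FOS, -0.0092 for GPC3 and -0.022 for IER2. The labels do not say whether the replicate numbers pair the samples. Deviations of same-numbered libraries correlated at -0.191, 0.213 and -0.0558, and those of differently numbered libraries at -0.17 to 0.221. With 3 libraries per group these values cannot show whether a pairing exists. FGFR1, FGFR4 and FGF8 had too few reads to pass the filter.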
